A study of Mus musculus with 20 samples.

Results

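The mRNAs of 10 genes used as markers of resident and alternatively activated macrophages were followed in the epididymal fat of obese mice: Mrc1, Cd163, Lyve1, Folr2, Timd4, Clec10a, Mgl2, Retnla, Cd209f and Cd209g. They were taken by symbol from the platform annotation, with the probe set of highest mean standing for a gene. All 10 were measured, each by 1 probe set, among 19505 named genes. Total RNA of the fat pad of 20 male C57BL/6 mice was hybridised to arrays, and all values are log2 signals per probe set. Every mouse carried floxed Tnf alleles on both chromosomes (TNF-αFlox/FLox). The 10 mice called wt were LyzMcre-/- and kept Tnf, and the 10 called cre were LyzMcre+/-, so that Cre made from the Lyz2 promoter, which is active in macrophages, monocytes and granulocytes, could remove Tnf there. The labels call the animals littermates. All were 28 weeks old, had eaten chow to 10 weeks of age and then spent 18 weeks on a purified diet with 40% of its calories from fat. Each of 2 batches held 5 mice of each genotype. Mice are named here by genotype and replicate number.

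Macrophages that settle in fat carry scavenger and lectin receptors with which they take up proteins, sugars and dying cells, and many lie along blood vessels. Type 2 cytokines such as interleukin 4 act through STAT6 to raise a set of genes called alternative activation, of which Retnla and the lectins are classic mouse examples. Obesity brings further macrophages into epididymal fat, and Adgre1, the F4/80 antigen, marks mouse macrophages in general. Whole tissue was measured, so fewer cells of a type and less RNA per cell cannot be told apart.

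Tnf was lower in all 10 cre mice than in any wt mouse. It ranged from 5.78 to 7.80 in wt and from 3.91 to 5.34 in cre, and fell by 1.99 on the log2 scale (95% interval −2.49 to −1.49, limma adjusted p = 0.000822). Adgre1 lay between 11.4 and 14.3 in wt and between 10.7 and 13.9 in cre, and the groups overlapped. A general macrophage list had 20 measured genes, Adgre1 among them. The cre mean was lower for all 20, with 0 past adjustment and 3 at an unadjusted p under 0.05. The median over mice of the list mean went the other way, at 12.67 in cre and 12.56 in wt. The lowest list means were those of cre mice 9 and 7. Besides Adgre1, 18 of 19 genes of the list rose with Adgre1 past adjustment, so the 20 genes are not separate observations. Of all probe sets, 50.7% were higher in cre, 0.0045% passed adjustment and 6.29% had an unadjusted p under 0.05. Array medians lay between 6.49 and 6.58.

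A group of 5 mice (wt 4 and 6, cre 2, 3 and 9) stood apart by genes of another tissue, with a list mean over 1 log2 unit above the next mouse of the genotype. The seminal vesicle list averaged 16.8 in wt mouse 6 and no more than 6.89 in the other mice, whose highest was cre mouse 3. The hepatocyte list averaged 14.2 in wt mouse 4 and at most 12.2 elsewhere. An erythroid list of 2 measured genes averaged 14.6 in cre mouse 9 and at most 11.9 elsewhere, and the brown adipocyte list averaged 8.06 in cre mouse 2 and at most 6.62 elsewhere. The list of 9 measured genes of mature adipocytes averaged 14.7 in wt mouse 6 and 15.3 in wt mouse 5, against 16.2 to 17.3 in the other mice. Values without some of these mice stand beside many of the results.

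Promoter windows of 250 bases before an annotated start were found in RefSeq (GRCm38.p6) for 8 of the 10 genes, and Folr2 had 2 windows. Such a window can overlap the span of its gene, as given below for Cd209f and Cd209g. Shown are 3 of them: that of Retnla, a classic STAT6 target in mouse macrophages, and those of Cd209f and Cd209g, whose signals moved together most closely. In the Retnla window (chr16:48842359-48842608, plus strand) the capitals mark the only match of a STAT6-type motif, TTCNNNNGAA, in the windows of these genes.
Retnla: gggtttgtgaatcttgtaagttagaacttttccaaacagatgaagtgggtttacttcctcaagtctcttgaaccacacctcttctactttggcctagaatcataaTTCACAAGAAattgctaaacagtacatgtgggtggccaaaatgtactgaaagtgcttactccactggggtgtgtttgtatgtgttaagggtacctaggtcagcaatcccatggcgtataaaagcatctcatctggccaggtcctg
The match begins 145 bases before the start. The motif, which reads alike on both strands, occurred in 5.85% of the 32851 windows of the same length. The shorter form TTCNNNGAA occurred in 7.02% of them and in none of the windows of these genes.

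The windows of Cd209f (chr8:4105765-4106014, minus strand) and Cd209g (chr8:4134486-4134735, plus strand) share an identical run of 154 bases, given in capitals below. The longest run shared by any other pair of windows was 10 bases. The Cd209g window lies inside the annotated span of its gene (chr8:4134246-4137707). That of Cd209f overlaps the span of its gene (chr8:4102784-4105838). Whether the shared run is transcribed was not tested.
Cd209f: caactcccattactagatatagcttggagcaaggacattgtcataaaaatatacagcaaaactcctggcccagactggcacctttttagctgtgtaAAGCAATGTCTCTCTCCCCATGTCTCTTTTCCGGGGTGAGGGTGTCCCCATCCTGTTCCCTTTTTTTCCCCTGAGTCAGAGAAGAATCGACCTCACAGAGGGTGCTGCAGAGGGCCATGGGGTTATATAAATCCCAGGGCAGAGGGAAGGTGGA
Cd209g: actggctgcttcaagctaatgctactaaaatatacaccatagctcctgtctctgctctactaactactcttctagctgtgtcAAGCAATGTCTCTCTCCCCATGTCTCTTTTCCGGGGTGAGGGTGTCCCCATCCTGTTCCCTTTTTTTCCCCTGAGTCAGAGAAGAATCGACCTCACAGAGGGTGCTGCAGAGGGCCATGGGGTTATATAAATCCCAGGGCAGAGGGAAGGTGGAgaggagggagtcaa
The shared run holds TGAGTCA, an AP-1 type motif found on either strand in 4.46% of all windows, and 1 of the Folr2 windows holds its reverse complement. These matches describe the letters only. The genes stand near each other on chromosome 8, and whether their probes also bind each other's transcripts was not tested. The same holds for Clec10a (chr11:70166623-70170836) and Mgl2 (chr11:70130125-70137542), neighbouring paralogs for galactose-type lectins.

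For none of the markers did the difference between cre and wt pass the test. In the limma fit with batch as a term, 0 of the 10 passed adjustment and 0 had an unadjusted p under 0.05. Over all probe sets 0.0045% passed adjustment and 6.29% had an unadjusted p under 0.05. The cre mean was higher for 5 markers and lower for 5, with a median difference of −0.02 against 0.00337 over all probe sets. Adjusted p ranged from 0.853 to 0.998, and wt and cre ranges overlapped for all 10.

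The scavenger and endocytic receptors were taken first. Mrc1, the mannose receptor, had signals from 13.6 to 15.1 with a median of 14.3 in wt, and from 13.3 to 15.1 with a median of 14.3 in cre. The highest mice were wt mouse 5 and cre mouse 5, and the lowest were cre mice 9 and 7. The difference was −0.12 (95% interval −0.63 to 0.40), and it was −0.0078 without wt mouse 5 and −0.23 without cre mouse 5.

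Folr2, a folate receptor of resident macrophages, ranged from 11.3 to 15.0 with a median of 12.5 in wt. In cre it ranged from 10.6 to 13.8 with a median of 12.8. In cre, 3 mice (7, 9 and 10) lay below the lowest wt mouse, yet the cre median was the higher one. The difference of −0.54 had an interval from −1.53 to 0.45 (limma adjusted p = 0.864), and it was −0.28 without wt mouse 5.

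Cd163, the receptor for haemoglobin bound to haptoglobin, ranged from 7.06 to 10.1 with a median of 9.47 in wt and from 8.63 to 10.4 with a median of 9.53 in cre. In cre, 4 mice exceeded every wt mouse, while wt mouse 6 lay far below all others. The difference was 0.39 (−0.29 to 1.07), and 0.14 without wt mouse 6.

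Lyve1, a hyaluronan receptor of perivascular macrophages and lymphatic vessels, ranged from 7.78 to 11.2 with a median of 9.76 in wt and from 7.88 to 10.5 with a median of 9.59 in cre. Its lowest values came from wt mouse 6 and cre mouse 3. The seminal vesicle list averaged 16.8 in the former and only 6.89 in the latter, and at most 5.66 in the other mice. The difference was −0.30 (−1.07 to 0.46), and it was −0.53 without wt mouse 6 and −0.10 without cre mouse 3. All 8 listed lymphatic endothelial genes, Prox1 among them, were measured, and 0 of 8 passed adjustment between genotypes (0 at an unadjusted p under 0.05).

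Timd4, a phosphatidylserine receptor of long-lived tissue macrophages, ranged from 5.53 to 6.58 with a median of 6.25 in wt and from 5.42 to 6.89 with a median of 6.01 in cre. The wt range lay inside that of cre. Its signals stood at percentiles 36.7 to 53.6 of their arrays, and calls of detection were not used here. Whether they rise above background was not tested, and a signal near background could hide a difference or a relation. The difference was −0.05 (−0.44 to 0.34).

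The lectins came next. Clec10a, which binds galactose-type sugars, ranged from 10.2 to 12.2 with a median of 11.1 in wt and from 10.5 to 11.8 with a median of 10.95 in cre. Of the cre mice, 9 lay below the wt mean, but the groups overlapped throughout, and the difference was −0.20 (−0.64 to 0.25), with −0.07 without wt mouse 3 and −0.31 without wt mouse 1. Its paralog Mgl2 ranged from 7.95 to 10.6 with a median of 8.94 in wt and from 8.02 to 10.2 with a median of 9.20 in cre, and the difference was 0.01 (−0.68 to 0.70).

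Cd209f and Cd209g belong to the mouse SIGN-R family of C-type lectins. Cd209f ranged from 7.32 to 10.8 with a median of 9.59 in wt and from 7.08 to 11.4 with a median of 9.87 in cre. Cd209g ranged from 5.89 to 9.88 with a median of 9.01 in wt and from 7.30 to 10.9 with a median of 9.11 in cre. Cre mouse 9 was highest in both, and wt mouse 6 and cre mouse 3 were the lowest. The differences were 0.08 (−0.87 to 1.03) for Cd209f and 0.48 (−0.45 to 1.42) for Cd209g, the latter 0.17 without wt mouse 6.

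Retnla encodes the secreted protein RELMα, also called FIZZ1. It ranged from 10.4 to 15.3 with a median of 14.0 in wt and from 12.3 to 15.1 with a median of 14.1 in cre, which made a 31.2-fold range over all mice and an 8.49-fold range without wt mouse 6. Wt mice 6 and 5 and cre mouse 4 were the lowest, and wt mouse 3 and cre mice 9 and 7 the highest. The difference was 0.31 (−0.67 to 1.29), and it was −0.05 without wt mouse 6.

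**Figure D1:**
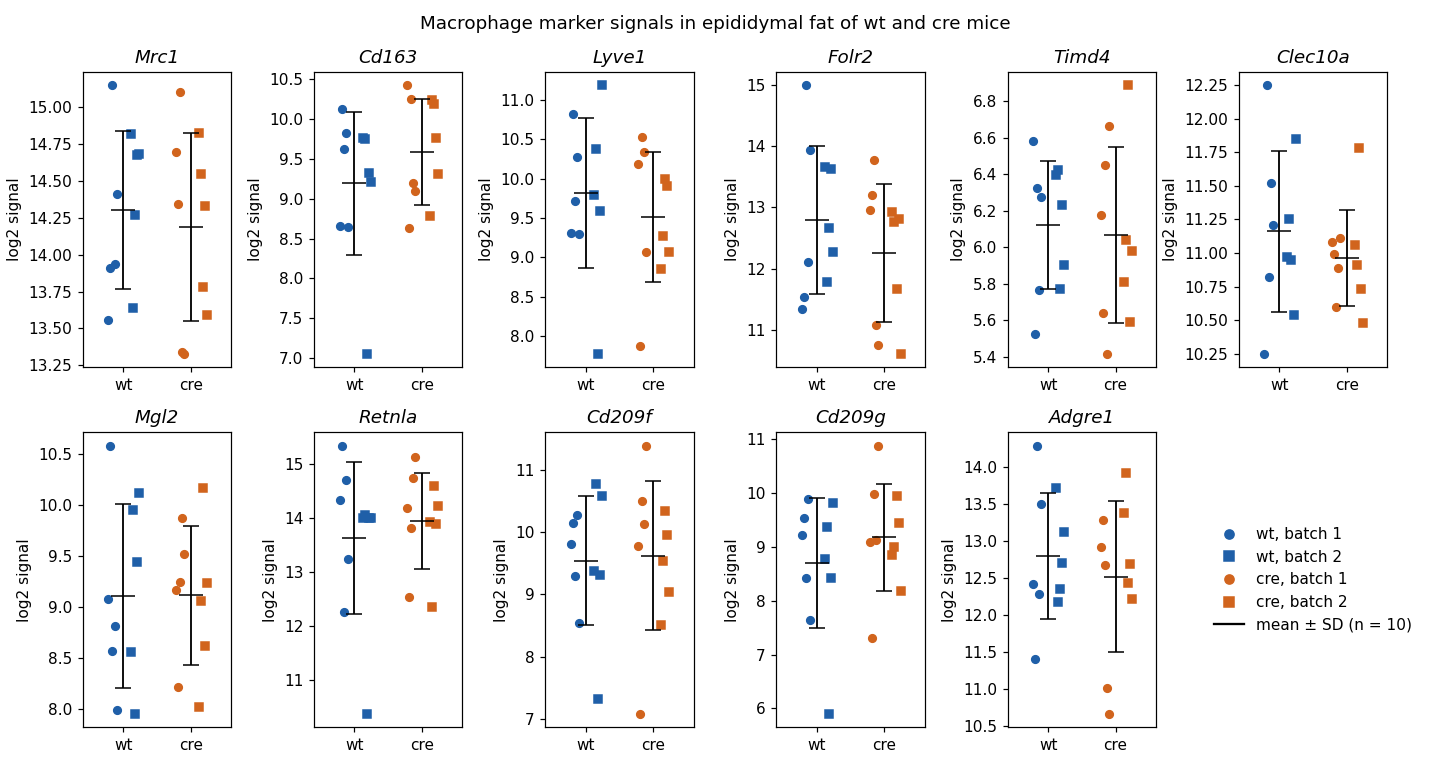
Log2 signals of the 10 markers and of Adgre1 in each mouse (blue wt, orange cre; circles batch 1, squares batch 2), with the mean ± SD of 10 mice per genotype in black. The vertical axes differ between panels; wt and cre overlap in every panel, and wt mouse 6 is the low square at 7.06 for Cd163 and 10.4 for Retnla.

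By the interaction test, 0 of 10 markers passed adjustment for a genotype difference that differed between batches, against 0% of all probe sets, and the lowest unadjusted p was 0.470 (Cd163). Within a batch the largest differences were −0.64 for Folr2, 0.63 for Cd163 and 0.63 for Cd209g, all in batch 2, with limma adjusted p from 0.942 to 0.950. They were −0.68, 0.14 and −0.012 without wt mouse 6, where the largest in batch 2 was −0.82 for Lyve1. At an equal Adgre1 signal, 0 of 10 markers passed adjustment between genotypes, against 0.00901% of probe sets, and the lowest unadjusted p was 0.221 (Cd163). Those differences ran from −0.35 for Lyve1 to 0.42 for Cd163, and without wt mouse 6 from −0.63 for Lyve1 to 0.15 for Cd163.

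Mrc1 and Folr2 rose with Adgre1, and the other 8 did not pass the test with all mice. Per log2 unit of Adgre1, with genotype and batch in the fit, Folr2 rose by 1.06 log2 units (95% interval 0.72 to 1.39, limma adjusted p = 0.000133) and Mrc1 by 0.51 (0.31 to 0.71, adjusted p = 0.00109). These were 2 of 10 markers, where 6.26% of all probe sets passed adjustment in that direction and 8.82% in either. In the plots of single mice, wt mouse 5 was highest in Adgre1, Folr2 and Mrc1, and cre mice 7 and 9 were lowest in Adgre1 and among the 3 lowest in the other two.

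Pearson's r with Adgre1 over 20 mice was 0.80 for Mrc1 (Spearman's rho 0.82, permutation p = 0.00017 and 0.00013) and 0.80 for Folr2 (rho 0.81, p = 0.00019 and 0.00023). These are 2 of 10 relations computed, permuted within genotype and batch, and the adjustment for multiple tests is that of the limma slopes. Without cre mice 9 and 7, the farthest from the Adgre1 median, r was 0.71 for Mrc1 and 0.74 for Folr2. Within batches r was 0.82 and 0.79 for Mrc1 and 0.92 and 0.60 for Folr2. Within genotypes it was 0.81 in wt and 0.79 in cre for Mrc1, and 0.86 and 0.75 for Folr2. For a slope that differed between genotypes, 0 of 10 markers passed adjustment, against 0% of probe sets, and the lowest unadjusted p was 0.179 (Timd4). In batch 2 alone the slopes were 0.63 for Mrc1 and 0.95 for Folr2 and did not pass adjustment (adjusted p = 0.302 and 0.439), where 0% of all probe sets did.

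**Figure D2:**
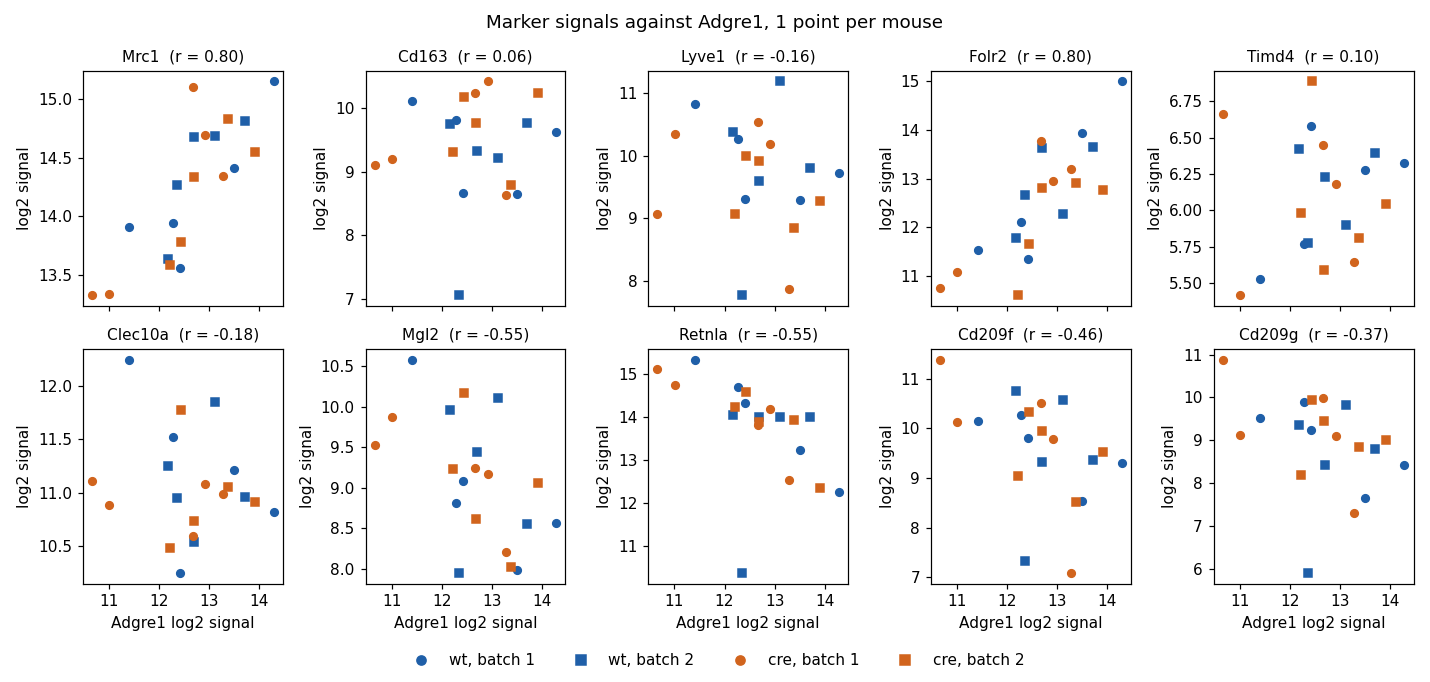
Log2 signal of each marker against that of Adgre1, 1 point per mouse, coloured by genotype (blue wt, orange cre) and shaped by batch (circles 1, squares 2), with Pearson's r over 20 mice. Mrc1 and Folr2 climb with Adgre1 (r = 0.80 for both), whereas Retnla and Mgl2 slope down (r = −0.55 for both) and wt mouse 6 lies below the rest for Retnla.

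The remaining slopes lay at or below 0.11. Cd163 had a slope of 0.11 (−0.28 to 0.51), Timd4 0.04 (−0.19 to 0.27), Clec10a −0.12 (−0.37 to 0.14) and Lyve1 −0.18 (−0.62 to 0.26). The slopes of Mgl2 (−0.50, limma adjusted p = 0.0564), Retnla (−0.65, 0.0995), Cd209f (−0.55, 0.176) and Cd209g (−0.39, 0.394) were negative and missed the threshold with all 20 mice. Without wt mouse 6 the slope was 0.0040 for Cd163, −0.29 for Lyve1 and −0.54 for Cd209g (adjusted p = 0.0511).

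These calls turned on wt mouse 6. Without it, Retnla fell by 0.83 log2 units per unit of Adgre1 (limma adjusted p = 2.97e-05), Cd209f by 0.68 (0.0203) and Mgl2 by 0.58 (0.00614), which made 5 of 10 markers past adjustment beside 12.2% of all probe sets. Only 4.95% of probe sets were called lower in that fit. Retnla then had r = −0.84 with Adgre1 (rho −0.84, permutation p = 2e-05 and 0.00018), against −0.55 (rho −0.72, p = 0.0147 and 0.0032) with all mice. Leaving out all 5 mice that stood apart, Retnla (−0.90, adjusted p = 0.00049) and Mgl2 (−0.57, 0.0496) fell with Adgre1, and Mrc1 and Folr2 still rose, so that 4 of 10 passed beside 6.13% of probe sets.

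Batch 1 alone, which does not hold wt mouse 6, gave 5 markers past adjustment beside 8.16% of probe sets. Retnla fell by 0.90 (limma adjusted p = 0.000357), Mgl2 by 0.55 (0.0259) and Cd209g by 0.69 (0.0488). This batch does hold cre mice 3 and 9, which also stood apart. Over both batches, the Cd209g slope was −0.24 without cre mouse 9. Without the 5 mice that stood apart it was −0.28 (limma adjusted p = 0.514), and that of Cd209f was −0.28 (0.394). Batch 2 alone gave 0 markers and 0% of probe sets. The difference in slope between batches passed adjustment for 0 of 10 markers and 0% of probe sets, with 0.73 (−0.43 to 1.89) for Retnla and a lowest unadjusted p of 0.0864 (Cd209g, 1.02). Leaving out wt mouse 6, that difference was 0.22 (−0.34 to 0.79) for Retnla and 0.61 for Cd209g, and the Retnla slope in batch 2 was −0.66 (−1.17 to −0.14, limma adjusted p = 0.345). Within genotypes, Retnla had r = −0.83 in cre mice and −0.36 in wt mice, the group that holds wt mouse 6, and the test of the difference in slope is given above.

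**Figure D3:**
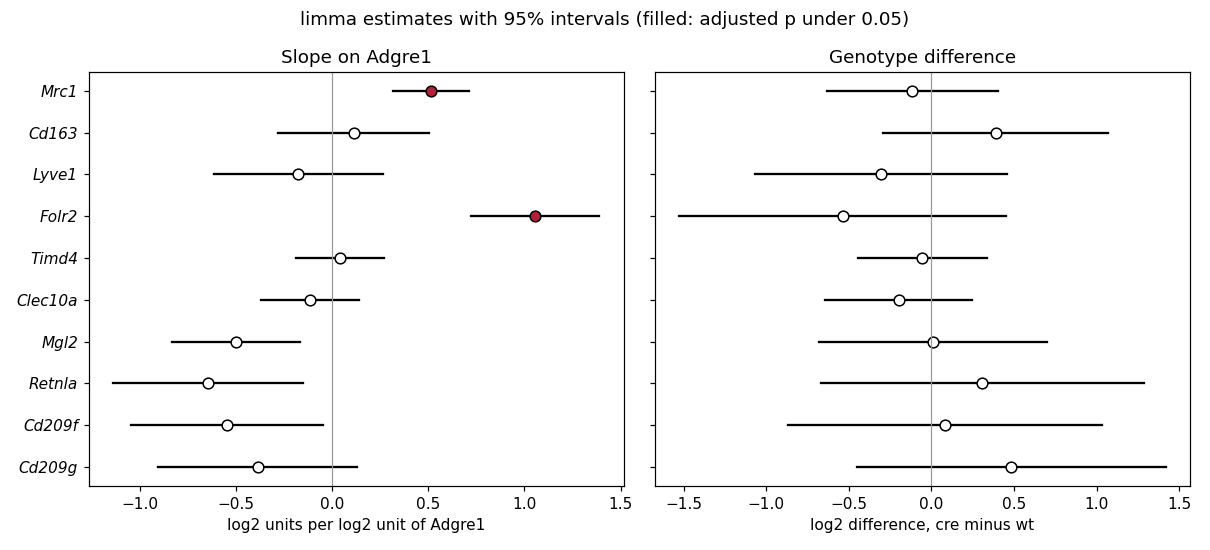
limma estimates for each marker with 95% intervals, over 20 mice: on the left the slope on Adgre1 (log2 units per log2 unit), on the right the genotype difference (cre minus wt, log2). Filled points passed adjustment over all probe sets; only the Mrc1 slope of 0.51 and the Folr2 slope of 1.06 did, and all 10 genotype intervals include 0.

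Slopes of other macrophage genes on Adgre1 are given beside these as counts. Of 19 measured genes of the general macrophage list besides Adgre1, 18 rose with Adgre1 past adjustment, beside 6.26% of all probe sets, with a median slope of 0.84 against −0.02 for all probe sets and −0.15 for the 10 markers. Examples are C1qc, a complement component (1.25), and Csf1r, the CSF1 receptor (0.81). Of 14 genes of lipid-associated macrophages, 10 rose, with a median slope of 0.71. No test between these lists was made.

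Other genes of resident and perivascular macrophages were mixed. Of 23 measured, 9 rose with Adgre1 and 0 fell past adjustment, beside 6.26% of all probe sets called higher, with a median slope of 0.30. Vsig4, a complement receptor (0.87), the chemokine Pf4 (0.80), Hmox1, which degrades haem (0.76), and Siglec1, a sialic acid receptor (0.60), were among those that rose. F13a1, a coagulation factor subunit made by such macrophages, had a slope of −0.01, the carbonyl reductase Cbr2 −0.05 and the neonatal Fc receptor chain Fcgrt 0.00261. The lectins Cd209d (−0.37) and Fcna (−0.47) and the leukotriene synthase Ltc4s (−0.28) were negative without passing adjustment.

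Of 18 other genes of alternative activation, 3 rose with Adgre1 (6.26% of all probe sets did) and 0 fell: Cd200r1, an inhibitory receptor (0.89), and the transcription factors Egr2 (0.87) and Myc (0.40). Arg1 (−0.06) and Chil3 (−0.14), both widely used with Retnla as mouse markers of this state, did not pass adjustment. Of 11 type 2 cytokine and receptor genes, 2 rose: the kinase Tyk2 (0.39) and the receptor chain Il13ra1 (0.33). Il4 and Il13 had slopes of 0.08 and 0.09. Between genotypes, 0 of the 23, 0 of the 18 and 0 of the 11 genes passed adjustment, and 2, 1 and 0 of them had an unadjusted p under 0.05, as did 6.29% of all probe sets.

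Markers of other possible sources were counted on Adgre1 in the same way, beside 6.26% of all probe sets called higher. For dendritic cells the calls were 3 of 10 (Itgax, H2-Ab1 and Irf8), and Itgax is also in the list of lipid-associated macrophages. Flt3, Zbtb46, Xcr1 and Clec9a of the dendritic list did not pass. The other calls were 1 of 7 for monocytes (Vcan), 1 of 6 for eosinophils (the chemokine receptor Ccr3) and 1 of 8 for liver sinusoid and Kupffer cells (Fcgr2b). They were 0 of 9 for peritoneal macrophages and 0 of 8 for lymphatic endothelium. All of these calls were higher.

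Among themselves 8 of the 10 markers fell into a pair and a group of 6, described after their values were seen, with Timd4 and Clec10a in neither. Mrc1 and Folr2 moved together, with r = 0.90 (rho 0.88, permutation p = 3e-05 and 1e-05, the latter the smallest that 100000 resamples can give). Folr2 rose by 1.82 per unit of Mrc1 (limma adjusted p = 3.12e-05), where 8.03% of all probe sets passed. Without the 5 mice that stood apart r was 0.90. Cd163, Lyve1, Mgl2, Retnla, Cd209f and Cd209g made the other group, with r from 0.52 to 0.95 after subtracting the mean of each genotype in each batch. That range rested on wt mouse 6: without the subtraction r ran from 0.52 to 0.92 over 20 mice, from 0.11 (Cd163 with Retnla) to 0.91 without wt mouse 6, and from 0.03 (the same pair) to 0.97 without the 5 mice. After the subtraction, the r of these 6 genes with Mrc1 or Folr2 ran from −0.58 to 0.20. Without the subtraction it ran from −0.55 to 0.14 over 20 mice, and from −0.71 to 0.21 without wt mouse 6.

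Of the 45 pairs of markers, 13 passed adjustment over all probe sets in at least 1 direction of the regression, 12 of them among the 15 pairs of those 6 genes. These counts rested on wt mouse 6 and the others that stood apart. As slopes, 23 of 90 passed, beside 3.31% of all slopes on these markers. Without wt mouse 6 those 6 genes had 6 such pairs, and 14 of 90 slopes passed beside 3.36%. Without all 5 mice they had 1 pair, that of Cd209f with Cd209g, and 6 of 90 slopes passed beside 1.78%. The share of all probe sets that passed ran from 0% to 10.1% between the markers used as predictor, with all mice. Without wt mouse 6, Retnla fell with Folr2 by 0.54 per unit (limma adjusted p = 0.00229, where 13% of all probe sets passed), and without all 5 mice by 0.51 (0.0147, 7.94%). Timd4 and Clec10a passed with none of the others, and 0% of probe sets passed with either.

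Cd209f and Cd209g were the closest pair. Over 20 mice r was 0.92 (rho 0.93, permutation p = 1e-05 for both, the smallest possible), and each ranked as number 1 of 22205 probe sets by the p of its slope on the other. Cd209g rose by 0.93 per unit of Cd209f (limma adjusted p = 4.01e-06, where 2.45% of all probe sets passed). Without the 5 mice r was 0.97, and within batches it was 0.96 and 0.90. These are the 2 genes whose windows share the long run printed above. Whether that run, or binding of their probes to each other's transcripts, bears on their signals was not tested.

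**Figure D4:**
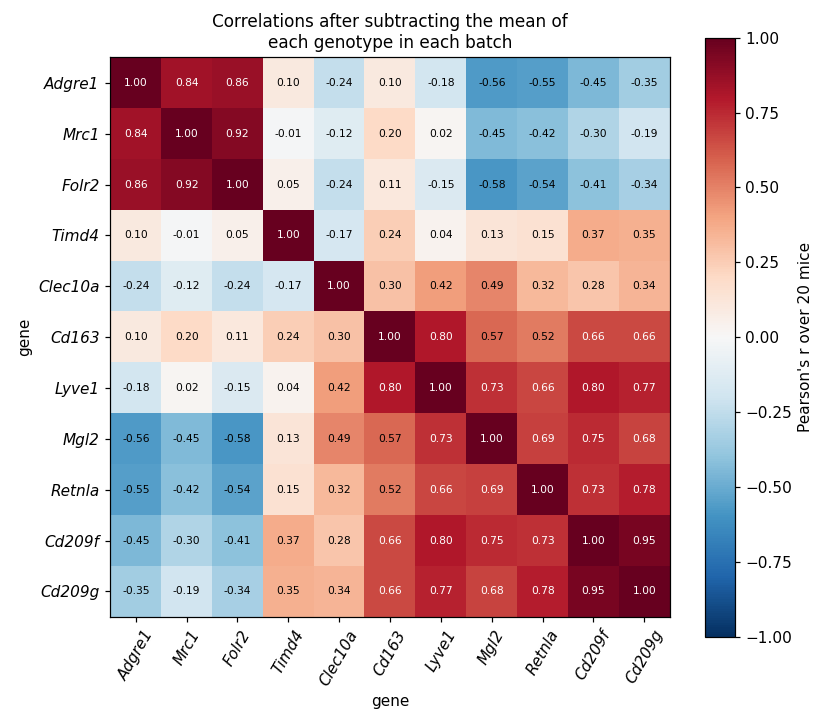
Pearson's r between the 10 markers and Adgre1 over 20 mice, after subtracting the mean of each genotype in each batch; red is positive and blue negative, with the value in each cell. Mrc1, Folr2 and Adgre1 form the block at the top left, and the 6 genes from Cd163 to Cd209g the block at the bottom right, whose highest r is 0.95 for Cd209f with Cd209g.

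Retnla was high in the mice with high signals of mature adipocyte genes. Over 20 mice its r with the mean of 9 such genes, Adipoq (adiponectin) and Plin1 (a coat protein of lipid droplets) among them, was 0.93 (rho 0.88, permutation p = 2e-05 for both), and 0.90 without Retn, a relative of Retnla in that list. It is 1 of 10 relations computed with that mean. It was 0.96 in wt, 0.85 in cre, 0.90 in batch 1 and 0.95 in batch 2. Without wt mouse 6 it was 0.85, without wt mice 5 and 6 0.84, and without the 5 mice that stood apart 0.87. Mgl2 had r = 0.68 with that mean (permutation p = 0.00048), and 0.66 without wt mouse 6. Without the 5 mice Mgl2 had r = 0.60 (permutation p = 0.103) and rho 0.71 (p = 0.00206). Cd209g had 0.75 and Cd209f 0.69, which dropped to 0.54 and 0.56 without wt mouse 6. Lyve1 had 0.61 and then 0.41, and Cd163 had 0.56 and then 0.13. Clec10a had 0.22 and Timd4 0.14 over 20 mice.

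Mrc1 (r = −0.49) and Folr2 (−0.58) ran the other way, and so did Adgre1 (−0.49), with −0.69, −0.80 and −0.78 without wt mouse 6. Adgre1 and the adipocyte genes thus moved against each other across mice. In a fit with both, added after seeing the data, 6 of 10 markers (Cd163, Lyve1, Mgl2, Retnla, Cd209f and Cd209g) rose with the adipocyte mean at equal Adgre1, beside 4.31% of probe sets called higher and 8.45% in either direction. Mrc1 (0.47, limma adjusted p = 0.00575) and Folr2 (0.92, 0.00112) rose with Adgre1 in that fit, beside 5.94% of probe sets called higher, while the slope of Retnla on Adgre1 was −0.14. Without wt mouse 6, and likewise without all 5 mice, that fit called 0 markers and 0% of probe sets for the adipocyte mean. For Adgre1 it called 0 markers and 0.788% of probe sets without wt mouse 6, with slopes of 0.47 for Mrc1 (adjusted p = 0.354) and 0.72 for Folr2 (0.367), and the Retnla slope on the adipocyte mean changed from 1.58 to 0.90 (0.15 to 1.65). The parts of Adgre1 and of the adipocyte genes in the Retnla signal cannot be told apart without that mouse. With it, the calls for the adipocyte mean rested on wt mouse 6. That mouse had a seminal vesicle list mean of 16.8 and the lowest adipocyte mean, 14.7. The fit with all mice therefore does not separate the parts either.

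**Figure D5:**
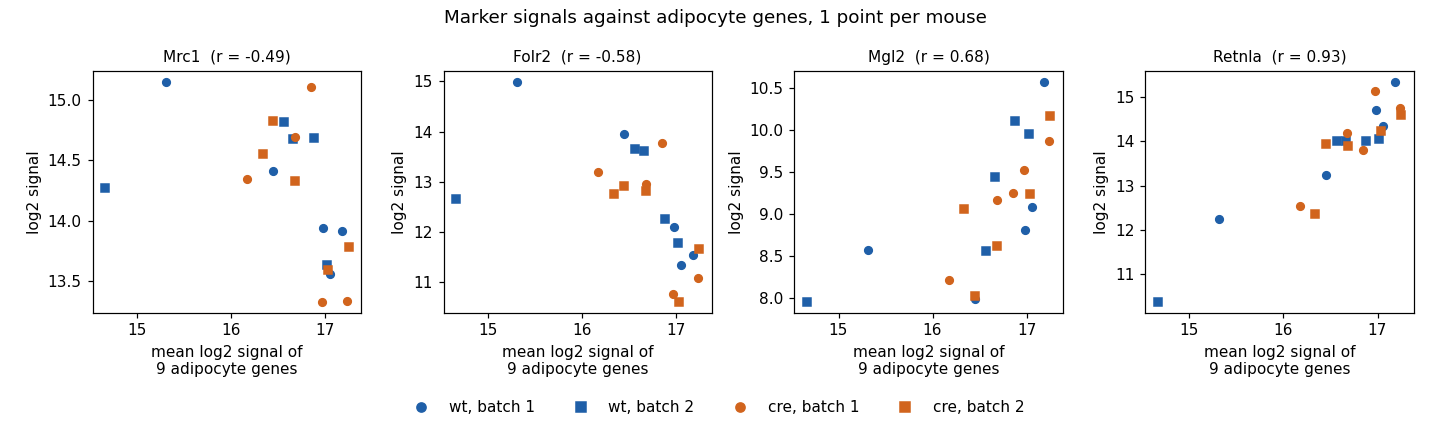
Log2 signals of Mrc1, Folr2, Mgl2 and Retnla against the mean log2 signal of 9 adipocyte genes, 1 point per mouse (blue wt, orange cre; circles batch 1, squares batch 2). Retnla climbs along the whole range (r = 0.93), Mgl2 less tightly (0.68), and Mrc1 and Folr2 fall (−0.49 and −0.58) apart from wt mouse 6 at 14.7.

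The genes most like each marker were ranked by r after the same subtraction, over 20 mice and all named genes. Wt mouse 6 was among these mice, and the ranking was not repeated without it. How far these r rest on that mouse was not tested. Each is also picked as among the highest over all named genes. For Mrc1 they were Plxdc2 (0.94), Ncoa3 (0.93) and Rassf2 (0.93), and for Folr2 Cd14, the lipopolysaccharide co-receptor (0.96), Slc38a1 (0.96) and Mcm3 (0.95). F13a1 was first for Cd163 (0.91) and second for Lyve1 (0.90), after Tsen34 (0.91). Adamts9, a secreted metalloprotease, was first for both Mgl2 and Cd209f (0.88 for both). Retnla was closest to Ctdspl (0.96), Pgm1, which interconverts glucose phosphates (0.94), and Ankrd40 (0.94), and Cd209g to Dgkd (0.90). The nearest genes of Timd4 (Gtse1, 0.82) and Clec10a (Vwa1, 0.84) had lower r.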

How the data were processed

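The authors deposited log2 signals of 22206 probe sets on 20 arrays. The software (Transcriptome Analysis Console 4.0.2.15), the method RMA and the build mm10 are named per the submitters' processing notes. Background settings, filters and any batch adjustment are not given in the sources used here. RMA usually makes array distributions alike, which hides any shift common to most genes and shrinks differences near background. The number of arrays limits the precision.

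Group, batch and replicate came from the titles, which call the mice biological replicates. The platform annotation gave 19572 probe sets 1 symbol, 0 several and 2634 none, and all 19572 matched RefSeq. The genes and lists were chosen with earlier results of these data known. All markers are named, with Adgre1, Tnf and Lyz2, up to 3 nearest genes per marker and members of the lists with an unadjusted p under 0.05, besides contrasting members chosen after their values were seen.

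limma 3.58.1 in R 4.3.3 fitted genotype and batch, with Adgre1 or an interaction as further terms, adjusted by Benjamini-Hochberg over all probe sets at 0.05. It was tested on simulated data. Correlations were permuted 100000 times, two-sided, within genotype and batch (Python 3.11.15, NumPy 2.4.6, SciPy 1.17.1, pandas 2.3.3), and figures drawn with matplotlib 3.10.9. Alternatives concerned batch, normalization, filters, weights, the covariate and mice left out. A fit with the adipocyte mean, batch 2 without wt mouse 6, and pairs without some mice were added after seeing the data.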

Additional observations from a re-analysis of the deposited data

Results flagged for a closer look

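In 20 sets of 10 mice (10 markers in 2 genotypes), 2 values lay apart from the rest of their group by Dixon's test at the 95% level, and chance flags about 1 in 20 groups. Cd163 was 7.06 in wt mouse 6, while the next lowest wt mouse had 8.64. That mouse was also the one high in seminal vesicle genes and lowest in adipocyte genes. Clec10a was 11.8 in cre mouse 6, while the next highest cre mouse had 11.1.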

How the results depend on the processing

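The count of markers past adjustment between genotypes, at equal Adgre1 and in the interactions with batch and genotype was 0 under every alternative run. For slopes on Adgre1 the count of 2 became 5 in batch 1 and 0 in batch 2 with or without wt mouse 6. It was 4 with array weights, 5 without wt mice 5 and 6, and 4 without the 5 mice that stood apart. It ran from 2 to 5 when leaving out each mouse in turn, with 5 only without wt mouse 6. Removing mice leaves fewer samples, and other causes were not tested. Same-numbered wt and cre mice correlated between −0.30 and 0.34 in their deviations, with mixed signs. Such correlations cannot tell whether the shared numbers mark related mice, and the labels do not say. With the replicate number as a block, 1 marker passed by slope, Folr2 (0.94, limma adjusted p = 0.00259), the Mrc1 slope was 0.39 (limma adjusted p = 0.108), and the Adgre1 slope was −0.053 for Cd163, −0.076 for Timd4, and the difference at equal Adgre1 was −0.0075 for Mrc1. The block left the other counts at 0.

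Values that changed sign follow, none of which passed adjustment under its alternative (lowest adjusted p 0.663 by limma), and their causes were not tested. In batch 1 alone the Adgre1 slope was −0.0077 for Cd163, and the difference at equal Adgre1 was 0.37 for Folr2, 0.031 for Timd4, −0.49 for Retnla, −0.12 for Cd209g. In batch 2 alone the genotype difference was −0.18 for Mgl2, and the Adgre1 slope was 0.13 for Lyve1, −0.069 for Timd4, 0.037 for Clec10a, 0.36 for Cd209g, and the difference at equal Adgre1 was −0.27 for Mrc1, 0.0080 for Cd209f. With array weights the genotype difference was −0.22 for Mgl2, −0.11 for Retnla, −0.26 for Cd209f, and the difference at equal Adgre1 was −0.19 for Retnla. With the mean of the general macrophage list in place of Adgre1 the Adgre1 slope was −0.0041 for Timd4, and the difference at equal Adgre1 was 0.084 for Folr2, −0.039 for Retnla. With the slope on Adgre1 fixed at 1 the difference at equal Adgre1 was 0.22 for Timd4, 0.080 for Clec10a, 0.29 for Mgl2, 0.36 for Cd209f. Without cre mice 7 and 9 the genotype difference was 0.11 for Mrc1, −0.16 for Mgl2, −0.21 for Cd209f, and the Adgre1 slope was −0.049 for Cd163. Without wt mice 5 and 6 the genotype difference was −0.20 for Mgl2, −0.27 for Retnla, −0.23 for Cd209f, and the Adgre1 slope was −0.038 for Cd163, −0.0050 for Timd4, and the difference at equal Adgre1 was −0.38 for Retnla. Without the 5 mice that stood apart the difference at equal Adgre1 was 0.042 for Timd4, −0.40 for Retnla, 0.12 for Cd209f. With the adipocyte mean as a covariate the Adgre1 slope was 0.16 for Lyve1, 0.021 for Cd209g, and the difference at equal Adgre1 was −0.19 for Retnla. In batch 2 without wt mouse 6 the genotype difference was −0.49 for Mgl2, −0.22 for Retnla, −0.54 for Cd209f, −0.012 for Cd209g, and the Adgre1 slope was −0.14 for Timd4, 0.012 for Clec10a, and the difference at equal Adgre1 was −0.24 for Mrc1, −0.22 for Retnla, −0.012 for Cd209g. Leaving out each mouse in turn moved genotype differences from −0.15 to 0.021 for Timd4, from −0.13 to 0.18 for Mgl2, from −0.045 to 0.50 for Retnla, from −0.17 to 0.40 for Cd209f; Adgre1 slopes from −0.029 to 0.15 for Timd4; differences at equal Adgre1 from −0.075 to 0.084 for Mrc1, from −0.14 to 0.025 for Timd4, from −0.33 to 0.015 for Mgl2, from −0.34 to 0.28 for Retnla, from −0.41 to 0.25 for Cd209f, from −0.017 to 0.63 for Cd209g. Each marker had 1 probe set, so no other rule for probe sets could be tried. Few arrays, signals near background and RNA from other tissues limit small differences.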
